A study of Mus musculus with 48 samples.

Results

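The nuclear genes of oxidative phosphorylation were taken from the deposited gene table by name. The rule kept each protein-coding gene whose name begins with Nduf, Sdha, Sdhb, Sdhc, Sdhd, Uqcr, Cyc1 or Atp5, or with Cox followed by a digit from 4 to 8. It used no measured value and found 97 of the 48440 genes, while 6 pseudogenes with a matching name were left out. By name, 45 of the 97 genes belong to complex I, 8 to complex II, 9 to complex III, 18 to complex IV and 17 to complex V. Of all 97, 76 encode subunits made in most cells, 11 encode assembly factors, 8 are paralogues known from other tissues or conditions, and Atp5s and Atp5sl encode related proteins that are not subunits. Ndufa4 is counted under complex I by its name, although its protein is known as a part of complex IV.

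RNA was sequenced from the merged left and right hippocampus of 48 female C57BL/6 mice aged 3 months, which were offspring of wildtype dams and 5-Htt+/- sires. Control (C) offspring came from dams that were left unstressed. Prenatally stressed (PS) offspring came from dams restrained 3 times daily between embryonic days 13 and 17, and were divided by their sociability into socially affected (SA, labelled PS-susceptible) and socially unaffected (SU, labelled PS-resilient) offspring. The libraries labelled 5-Htt+/+ are 8 C, 8 SA and 8 SU, and those labelled 5-Htt+/- are 7 C, 8 SA and 9 SU. 5-Htt is the serotonin transporter, of which 5-Htt+/- mice are known to carry 1 inactivated allele in all cells. Reads at its gene Slc6a4 separated the libraries by label without overlap, but were higher in those labelled 5-Htt+/-. They had a mean of 14.9 CPM (12.8 to 17.0) in the 24 libraries labelled 5-Htt+/- and 0.139 CPM (0 to 0.261) in the 24 labelled 5-Htt+/+. The cause was not tested, so that groups are named here by their labels only and no direction is assigned to an allele. CPM is the usual count scaled to a fixed library size, here after upper quartile scaling. A library held 16488405 to 38213754 counts in all. The litter of each animal is not given in the labels, and p-values may be too small where animals share one.

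Oxidative phosphorylation is carried out in the inner mitochondrial membrane. Complexes I and II pass electrons from NADH and succinate to ubiquinone, complex III passes them on to cytochrome c, complex IV passes them to oxygen, and complex V, the ATP synthase, uses the proton gradient built by complexes I, III and IV to make ATP. Most subunits are encoded in the nucleus and imported, but a small set at the core of complexes I, III, IV and V is encoded by mitochondrial DNA, so that each of these complexes is assembled from the products of separate genomes. Neurons of the hippocampus draw most of their ATP from this pathway. The genes named with the prefix mt- in the table are the mitochondrially encoded ones, and the mt share below is the percentage of all counted reads at the 37 genes so named.

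The nuclear genes together took 0.598% to 0.778% of the counted reads of a library, against an mt share of 3.43% to 5.95%. A mean of at least 10 CPM over the 48 libraries was found for 86 of the 97 genes, and of at least 100 CPM for 14. Most reads were at Atp5b and Atp5a1, the catalytic beta and the alpha subunit of the F1 head of the ATP synthase, with 793 ± 65.5 CPM and 570 ± 45.9 CPM (SD, n = 48). Sdha, the flavoprotein of succinate dehydrogenase, followed with 328 ± 20.4 CPM. These 3 genes held 26.0% of the reads at the 97 genes. Levels per kilobase depended on the length used, since all exons of a gene together were 1 to 11.8 times as long as its longest coding transcript over the 96 genes with both. Per kilobase of all exons, the median subunit was at 25.4 CPM in complex I, 36.3 in complex II, 45.7 in complex III, 45.5 in complex IV and 31.4 in complex V. Per kilobase of the longest coding transcript it was at 40.2, 51.1, 61.6, 86.4 and 93.4 CPM. Complex I had the lowest median by both lengths, and the order of the others changed with the length.

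The assembly factors, which build complexes without staying in them, had a median of 6.78 CPM per kilobase of all exons and 8.96 per kilobase of the longest coding transcript, below the median of each complex by both lengths. The paralogues were close to the limit of detection. All 8 of them, Ndufa4l2, Cox4i2, Cox6a2, Cox6b2, Cox7a1, Cox7b2, Cox8b and Cox8c, had a mean below 1 CPM, and no other gene of the set did. Cox6a2, Cox7a1 and Cox8b are known from heart and skeletal muscle, and were at 0.844 ± 0.270, 0.472 ± 0.181 and 0.139 ± 0.0988 CPM (SD, n = 48), against 98.2 ± 15 CPM for Cox6a1, the widely expressed counterpart of Cox6a2. Cox4i2, a form of subunit 4 known from lung and from low oxygen, was at 0.683 ± 0.196 CPM against 178 ± 25.6 CPM for Cox4i1. The testis paralogue Cox8c had a median of 0 reads and was the only gene of the set below the filter of 5 reads in 3 libraries, so that 96 of the 97 genes were tested among 31208 genes in all. Where genes overlap, reads could not be told apart: the row of Cox4i1 lies inside the read-through gene Gm20388, which held a median of 78831 reads against 4267, and that of Ndufa13 overlaps Yjefn3, which held 1063 against 882. Donson and Cryzl1 lie within the long span of Atp5o and together held 3054 reads against 7231.5. Values of Cox4i1, Ndufa13 and Atp5o are therefore uncertain. Rows on the same strand also overlap further genes, among them Ndufb8 (Gm20538), Ndufb2 (Gm42420), Ndufc2 (Gm16053) and Cox7c (Gm22574), whose reads were not compared.

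The complexes did not separate the 6 groups. The score of a complex is the mean log2 CPM of its subunits. For complex I it was 5.23 ± 0.097 (SD, n = 8) in C, 5.21 ± 0.042 (n = 8) in SA and 5.19 ± 0.047 (n = 8) in SU libraries labelled 5-Htt+/+, and 5.30 ± 0.173 (n = 7), 5.23 ± 0.088 (n = 8) and 5.25 ± 0.093 (n = 9) in C, SA and SU libraries labelled 5-Htt+/-. For complex V the 6 means lay between 6.52 (SU, labelled 5-Htt+/+) and 6.61 (C, labelled 5-Htt+/-), and the ranges of all groups overlapped in every complex. C libraries labelled 5-Htt+/- had the widest spread in all 5 complexes, with an SD of 0.135 for complex II and 0.173 to 0.178 for the others. Within them, replicate 3 gave the highest value of all 48 libraries for 36 and replicate 1 for 13 of the 86 genes at 10 CPM or more, whereas replicate 4 gave the lowest value for 16. The same replicate 3 had the lowest mt share of all, 3.43%, and the largest share of reads at the nuclear genes, 0.778%. In bulk tissue, fewer cells of a type and less RNA per cell cannot be told apart.

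**Figure D1:**
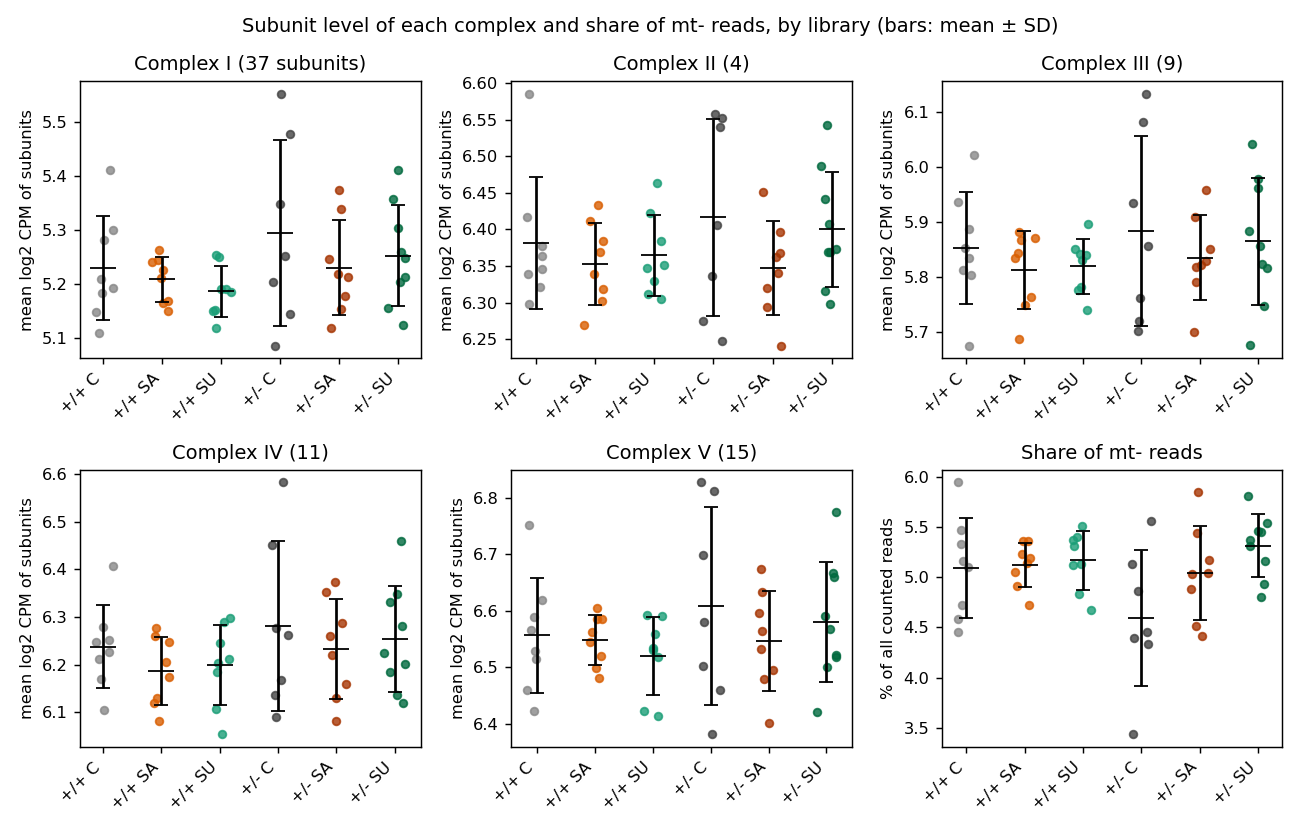
Mean log2 CPM of the subunits of each complex and, in the last panel, the percentage of counted reads at mt- genes, with 1 point per library in the 6 groups and bars for the mean ± SD. The groups overlap in every panel, and the C libraries labelled 5-Htt+/- are spread most widely, with 1 library at an mt share of 3.43%.

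No gene of the set was called in any of 9 comparisons between groups, by edgeR's quasi-likelihood test, by its likelihood ratio test or by DESeq2. The values given are those of the quasi-likelihood fit over all 48 libraries, with p-values adjusted by the Benjamini-Hochberg method over the 31208 genes. In libraries labelled 5-Htt+/+, SA against C gave 0 of 96 genes at an adjusted p under 0.05 (0.0128% of all genes tested were called) and 1 at an unadjusted p under 0.05, Cox4i2, which was 0.45 ± 0.19 (SE) higher on the log2 scale (adjusted p = 1.0). SU against C gave 0 called genes (0.0192% of all genes) and 0 at an unadjusted p under 0.05. Of all 31208 genes, 565 were higher and 394 lower at an unadjusted p under 0.05 for SA, and 495 and 556 for SU. The median log2 fold change of the 96 genes was -0.027 for SA and -0.036 for SU against C, beside -0.002 and -0.006 over all genes tested. Both comparisons share the same C libraries. By complex, the median for SA ran from -0.058 (complex III) to -0.021 (complex V) and that for SU from -0.061 (complex IV) to -0.025 (complex V).

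In libraries labelled 5-Htt+/-, more genes had an unadjusted p under 0.05, as they did over all genes. SA against C gave 0 of 96 called genes (0.0288% of all genes), with 11 lower and 1 higher at an unadjusted p under 0.05, where 6.96% of all genes were lower and 5.17% higher in that sense. The gene of smallest p was Atp5g2, which encodes the proton-carrying c subunit of the ATP synthase. Its level was 41.6 to 55.5 CPM (median 47.4) in C, 39.1 to 48.5 CPM (median 44.0) in SA and 40.2 to 48.8 CPM (median 42.6) in SU libraries labelled 5-Htt+/-, so that the groups overlapped. The log2 fold change was -0.15 ± 0.06 (SE) in SA and -0.14 ± 0.06 in SU against C (adjusted p = 0.359 and 0.261). SU against C gave 0 of 96 called genes (0.016% of all genes), with 11 lower and 8 higher at an unadjusted p under 0.05, beside 8.71% and 6.74% of all genes. Without replicate 4 of the C libraries this comparison called 432 of all genes, without replicate 2 of C 94, and without replicates 4 or 5 of SU 39 or 21, none of them in the set. The 8 higher genes were Ndufs1, Ndufs4, Ndufb2, Sdhaf2, Sdhaf3, Uqcrb, Uqcrh and Uqcrc2, each by 0.08 to 0.21 on the log2 scale. Markers of oligodendrocytes moved in the same comparisons. Of 8, none was called and 6 were lower at an unadjusted p under 0.05 both in SA (median -0.24 on the log2 scale) and in SU (median -0.28) against C. Their summed level was 2425 to 4177 CPM in C, 2108 to 3146 in SA and 2141 to 2708 in SU libraries labelled 5-Htt+/-. Of 7 astrocyte markers none was called, and 3 were lower in that sense in SA (median -0.18) and 2 in SU (median -0.12), with summed levels of 1390 to 1657, 1321 to 1484 and 1365 to 1683 CPM in C, SA and SU. All 10 choroid plexus markers were higher in SA (median 0.40) and in SU (median 0.85), with 0 at an unadjusted p under 0.05. Their median summed level was 51.5 CPM in C, 44.8 in SA and 288 in SU libraries labelled 5-Htt+/-. The part of these cells in the differences was not tested.

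The smallest adjusted p of any nuclear gene in any of the 9 comparisons was 0.116, for Sdhaf1 in SU against C libraries labelled 5-Htt+/-. Sdhaf1 inserts iron-sulphur clusters into Sdhb, and its level was 6.03 to 8.65 CPM (median 7.34) in C, 5.33 to 8.13 (median 6.24) in SA and 5.04 to 6.73 (median 5.83) in SU libraries labelled 5-Htt+/-, a log2 fold change of -0.28 ± 0.08 (SE) in SU. In libraries labelled 5-Htt+/+ the same gene was at 5.52 to 7.15 CPM (median 6.76) in C and 5.10 to 6.69 CPM (median 6.36) in SU. The core subunit of complex I with the largest difference in SU against C libraries labelled 5-Htt+/- was Ndufs7, which carries the last iron-sulphur cluster before ubiquinone. It was at 22.9 to 46.0 CPM (median 29.2) in C and at 21.2 to 30.3 CPM (median 24.8) in SU, with a log2 fold change of -0.28 ± 0.11 (adjusted p = 0.217). Ndufs1, another core subunit, was 0.10 ± 0.04 higher (adjusted p = 0.216), at 118 to 140 CPM (median 127) in C and 131 to 141 CPM (median 137) in SU. Uqcrb, the ubiquinone-binding protein of complex III, was 0.21 ± 0.08 higher (adjusted p = 0.201).

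The sign of the median difference over the set depended on few C libraries. The median log2 fold change of the 96 genes was -0.057 for SA and -0.026 for SU against C in libraries labelled 5-Htt+/-. With each library left out in turn it ran from -0.084 to -0.022 for SA and from -0.055 to 0.007 for SU. Without replicates 1 and 3 of the C libraries together it became +0.027 and +0.047. These replicates are the ones of lowest mt share, and were left out after the data were seen. With the mt share as a term in the fit the medians were +0.001 and +0.059. C libraries labelled 5-Htt+/- against C libraries labelled 5-Htt+/+ gave 0 called genes (0.016% of all genes), with 13 higher and 1 lower at an unadjusted p under 0.05, beside 4.82% and 3.69% of all genes. Their median of +0.049 became -0.020 without the same replicates, and ran from 0.011 to 0.078 with each library left out in turn. Of the 8 oligodendrocyte markers 5 were higher at an unadjusted p under 0.05 (median 0.23) and none was called, with 2081 to 3069 CPM summed in the C libraries labelled 5-Htt+/+. The 13 higher genes included Uqcr10 (0.26 ± 0.09, adjusted p = 0.575), a small subunit of complex III, Cox5b (0.19 ± 0.08, adjusted p = 0.576) and Cox7a1 (0.73 ± 0.26, adjusted p = 0.576), which had only 0.597 CPM on average in the C libraries labelled 5-Htt+/-.

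SA and SU libraries were compared directly within each label. No gene of the set was called for 5-Htt+/+ or for 5-Htt+/- (0% of all genes in both). At an unadjusted p under 0.05, 1 gene was higher and 1 lower for 5-Htt+/+, beside 711 and 507 of all 31208 genes. For 5-Htt+/- 1 gene was higher and 3 were lower, beside 509 and 674 of all genes. The interaction of SA against SU with the genotype label, in which the controls cancel, called 0 genes of the set and 0% of all genes, with 3 genes of the set at an unadjusted p under 0.05, all of them higher. These were Cox8b (1.66 ± 0.68), Ndufa9 (0.18 ± 0.07) and Atp5sl (0.18 ± 0.08), each with an adjusted p of 1.0. The interaction of PS with the genotype label also called 0 genes of the set and 0% of all genes, with 2 genes higher at an unadjusted p under 0.05, Sdhaf3 (0.26 ± 0.10, adjusted p = 0.810) and Ndufs1 (0.09 ± 0.04, adjusted p = 0.823). The median standard error of the genes at 10 CPM or more was 0.0648 to 0.069 in the comparisons of 2 groups.

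**Figure D2:**
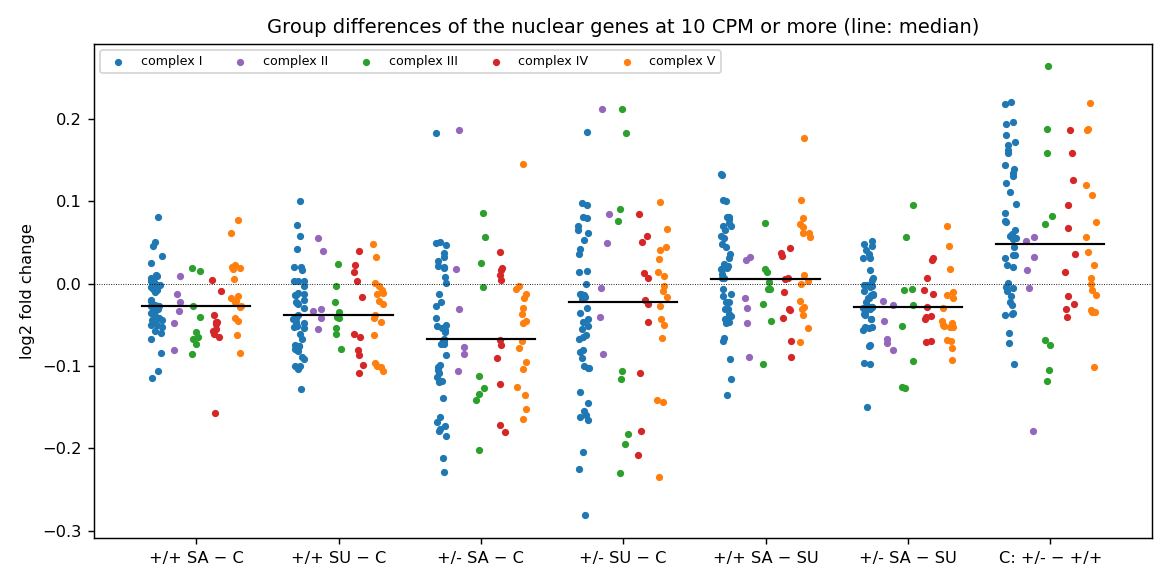
Log2 fold change of each nuclear gene at 10 CPM or more in 7 comparisons between groups, coloured by complex, with a line at the median. All genes lie between -0.28 (Ndufs7) and 0.26 (Uqcr10), and no gene passed an adjusted p of 0.05.

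The mt share itself was highest on average in SU and lowest in C libraries labelled 5-Htt+/-. It was 4.60% ± 0.677 (SD, n = 7) in C, 5.04% ± 0.467 (n = 8) in SA and 5.32% ± 0.310 (n = 9) in SU libraries labelled 5-Htt+/-, and 5.10% ± 0.498, 5.12% ± 0.220 and 5.17% ± 0.293 (n = 8 each) in C, SA and SU libraries labelled 5-Htt+/+. The C libraries labelled 5-Htt+/- ran from 3.43% to 5.56% (median 4.46%) and the SU libraries from 4.80% to 5.81% (median 5.37%), so that both ranges overlapped. SU against C differed by 0.720 percentage points (two-sided exact permutation test, p = 0.0124), which did not pass after adjustment over the 6 pairs of groups (adjusted p = 0.0745). Without replicate 4 of the C libraries the difference was 0.880 points and passed (exact permutation test, adjusted p = 0.0144). The other 5 pairs had adjusted p of 0.342 to 0.888 in the same exact permutation test.

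Libraries with a larger mt share had a lower level of the nuclear subunits. Over the 48 libraries, Pearson's r between the mt share and the mean log2 CPM of the 76 subunits was -0.61 and Spearman's rho -0.49. Without the libraries farthest from the median share, replicate 3 of the C libraries labelled 5-Htt+/- (3.43%) and replicate 3 of the C libraries labelled 5-Htt+/+ (5.95%), r was -0.49. With the group means removed it was -0.63. The relation was not present in each group: r was -0.61 in C, 0.46 in SA and 0.22 in SU libraries labelled 5-Htt+/+, and -0.84, -0.82 and -0.69 in C, SA and SU libraries labelled 5-Htt+/-. By complex, r was -0.66 for complex I, -0.51 for II, -0.54 for III, -0.51 for IV and -0.59 for V, whereas it was 0.42 for the assembly factors. These values are given as a description with no p, since all points share the scaling of their library and the mt reads are part of its total.

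**Figure D3:**
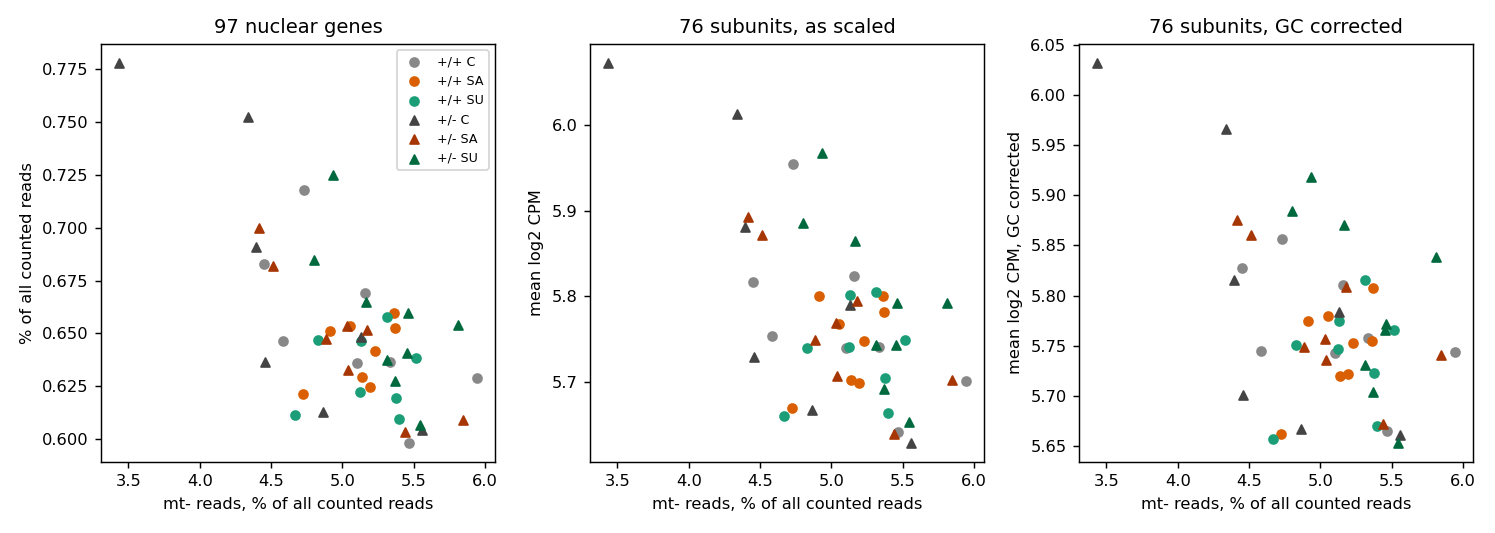
Percentage of counted reads at the 97 nuclear genes (left), mean log2 CPM of the 76 subunits (middle) and the same with the GC correction described further on (right), each against the percentage of counted reads at mt- genes, with 1 point per library and colours and marks for the 6 groups. All 3 measures are lower at a larger mt share (r = -0.68, -0.61 and -0.52), and the library at 3.43% lies apart from the others.

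Gene by gene, the slope on the mt share was tested in a fit with the 6 group means, so that it rests on differences among libraries of a group. It is given as log2 change per log2 unit of the mt share. The level of 54 of the 96 genes changed with the mt share at an adjusted p under 0.05 in edgeR's quasi-likelihood test, 48 of them lower and 6 higher at a larger share. Over all 31208 genes, 32.5% were called, 17.2% lower and 15.3% higher. Over the protein-coding genes tested, 22.15% were lower and 20.28% higher. Shares among genes of like length and level are given further on. The median slope was -0.41 for the 96 genes and -0.04 for all genes tested, and 75 of the 96 slopes were negative. Leaving out each library in turn gave 53 to 57 called genes. Ndufa5, Ndufa6, Ndufb4, Cox7a2 and Atp5j were not called without replicate 3 of the C libraries labelled 5-Htt+/- (adjusted p of 0.0565 to 0.222), Sdhaf1 was not called without replicate 2 of the SA libraries labelled 5-Htt+/- (adjusted p = 0.0505), and Uqcrb was lost in 8 of the 48 cases (highest adjusted p = 0.0861). These were replicates 3 and 8 of C and 6 of SU labelled 5-Htt+/+, and replicates 2 and 4 of C, 4 and 7 of SA and 6 of SU labelled 5-Htt+/-.

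Of the 37 subunits of complex I, 24 were lower and 1 was higher at a larger mt share, with a median slope of -0.54. Ndufb10, an accessory subunit of the membrane arm, lies at chr17:24722060-24724478 of GRCm38 and had a slope of -1.17 ± 0.13 (SE, adjusted p = 2.65e-09). In C libraries labelled 5-Htt+/- it ran from 38.9 to 82.4 CPM (median 46.3), with the highest value in the library of lowest and the lowest value in the library of highest mt share of that group. In SU libraries labelled 5-Htt+/+ it ran only from 39.96 to 48.2 CPM (median 43.9). Ndufs7, at chr10:80249121-80256794, had a slope of -1.41 ± 0.15 (adjusted p = 2.98e-09). Ndufs8, the neighbouring iron-sulphur subunit in the matrix arm, had -1.06 ± 0.14, and Ndufv1, which binds NADH and FMN, had -0.81 ± 0.11. Ndufa8 had -1.01 ± 0.13, Ndufa2 -1.25 ± 0.18 and Ndufb8 -1.08 ± 0.15.

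Not all of complex I followed. Among its core subunits, Ndufv2 was higher (0.31 ± 0.10, adjusted p = 0.0102), a direction that turned with the GC correction described further on (-0.40 ± 0.15, adjusted p = 0.0739), and Ndufs1 and Ndufs3 were not called. Ndufs1 was among the 3 genes of smallest spread at 10 CPM or more, with a coefficient of variation of 4.70% and a slope of 0.19 ± 0.08 (adjusted p = 0.0643). Ndufs4 had a slope of 0.17 ± 0.10, Ndufa4 of -0.07 ± 0.12 and Ndufb2 of -0.02 ± 0.09, none of them called. The coefficient of variation over the 48 libraries was 4.55% (Atp5o) to 17.9% (Ndufs7), with a median of 9.45% over the 86 genes. After Ndufs7, the most variable genes were Atp5d (17.7%) and Ndufa2 (17.5%).

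In complex II, 3 of 4 subunits were lower at a larger mt share. The iron-sulphur subunit Sdhb had a slope of -0.51 ± 0.11, Sdha of -0.39 ± 0.09 and Sdhc of -0.47 ± 0.12, whereas Sdhd had -0.08 ± 0.12 and was not called. In complex III, 5 of 9 subunits were lower and 1 was higher, with a median slope of -0.69. Uqcr11 had -1.18 ± 0.15 and Uqcrq -1.21 ± 0.17, Cyc1, the cytochrome c1 that hands electrons to cytochrome c, had -0.74 ± 0.13, and Uqcrc1 had -0.69 ± 0.13. Uqcrb was the higher one (0.45 ± 0.17, adjusted p = 0.0348), while the Rieske protein Uqcrfs1 (-0.24 ± 0.12), Uqcrc2 (0.09 ± 0.10) and Uqcrh (0.09 ± 0.17) were not called.

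Complex IV had 4 called subunits of 11, all of them lower. Cox4i1, at chr8:120668222-120674207 within the read-through gene named above, had a slope of -1.24 ± 0.14 and Cox6a1, at chr5:115345642-115348981, of -1.25 ± 0.16. Cox5b had -0.76 ± 0.15 and Cox7a2 -0.62 ± 0.17, whereas Cox5a (-0.37 ± 0.17), Cox7a2l, known for its role in supercomplexes (-0.21 ± 0.13), and Cox8a (-0.31 ± 0.19) were not called. Of complex V, 10 of 15 subunits were lower and none was higher, with a median slope of -0.52. Atp5d, the delta subunit of the F1 stalk, had -1.36 ± 0.18, Atp5a1 -0.60 ± 0.10 and Atp5b -0.52 ± 0.12. The 3 genes Atp5g1, Atp5g2 and Atp5g3, which encode the same mature c subunit, had slopes of -0.64 ± 0.15, -0.61 ± 0.11 and -0.65 ± 0.14. Atp5o, at the joint of F1 and the membrane part, had -0.34 ± 0.07.

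The assembly factors were divided. Of 11, 3 were higher and 2 lower at a larger mt share, with a median slope of 0.19. With the GC correction 2 were higher and 1 lower, and the median turned to -0.23. Ndufaf4, an early factor of complex I at chr4:24898083-24905001, had the largest positive slope of the 96 genes, 1.30 ± 0.19 (adjusted p = 5.47e-07). In C libraries labelled 5-Htt+/- it ran from 16.8 to 34.5 CPM (median 24.04), lowest in the library where Ndufb10 was highest and highest in the library where Ndufb10 was lowest. Ndufaf5 (0.42 ± 0.09) and Sdhaf3 (0.71 ± 0.17) were also higher, and Ndufaf3 (-0.72 ± 0.15) and Sdhaf1 (-0.53 ± 0.18) lower. Atp5s had a slope of 0.81 ± 0.13. None of the 7 tested paralogues was called, and their standard errors were 0.45 to 1.25, since they had few reads.

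**Figure D4:**
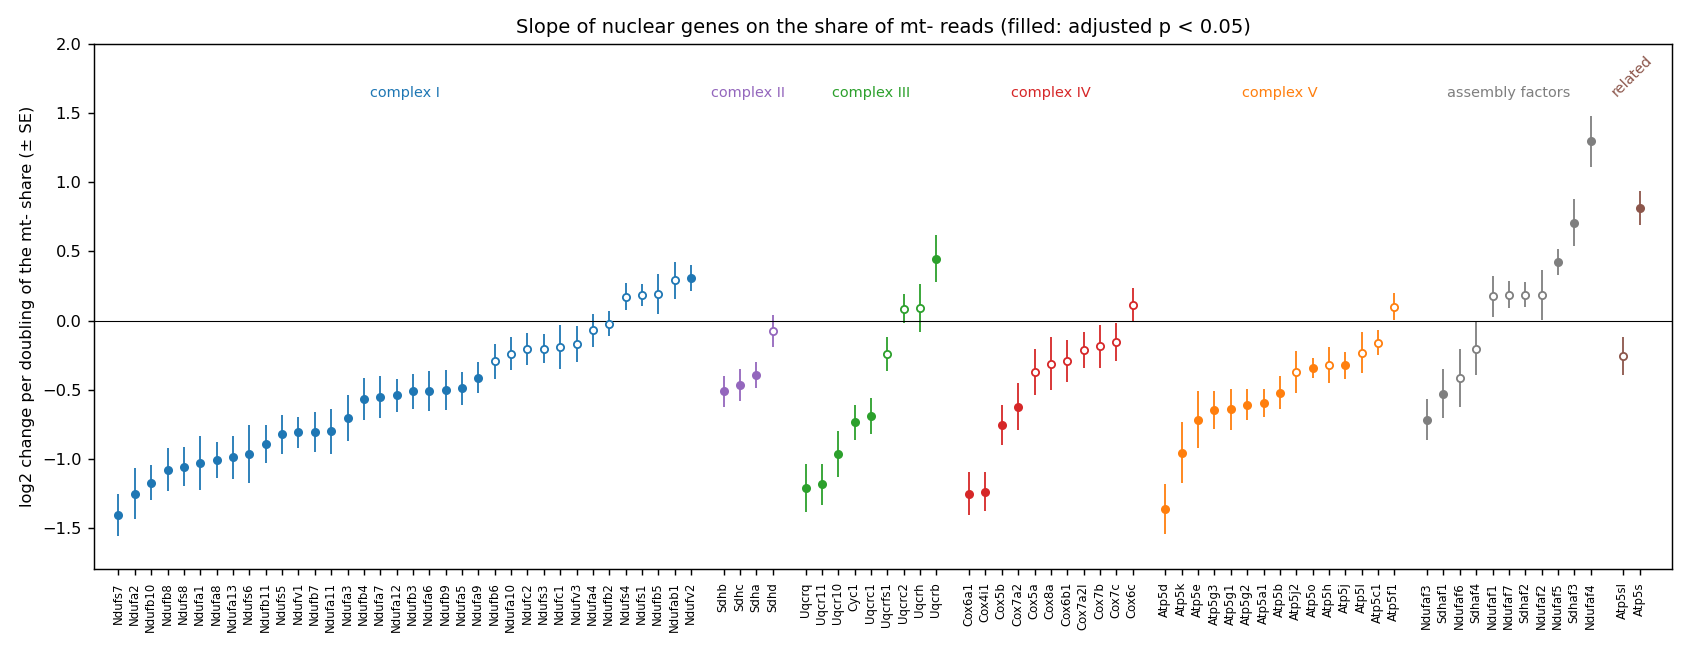
Slope of nuclear genes on the share of mt- reads, as log2 change per doubling of the share ± SE, by complex, with filled marks for an adjusted p under 0.05 and the paralogues left out. Most subunits of each of the 5 complexes lie below 0, and Ndufaf4 has the highest slope at 1.30.

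The slopes followed the base composition of the mRNA. Over the 17716 protein-coding genes with a sequence in the annotation, Spearman's rho between the slope and the GC content of the longest coding transcript was -0.72, and over the 96 genes it was -0.64. Both are across genes, which are not independent replicates. Of the 25 nuclear genes with a GC content of 55% or more, 18 were lower at a larger mt share, beside 54.1% of all protein-coding genes in that class. In the class of 50% to 55% it was 20 of 29 genes beside 27.9%. From 45% to 50% it was 9 of 26 beside 5.04%, and below 45% it was 1 of 16 beside 0.887%. These shares are not matched for level. Of the 97 genes of the set 86 were at 10 CPM or more, while the protein-coding genes were of any level. Ndufs7 has a GC content of 59.6%, Ndufb10 of 55.5% and Ndufaf4 of 39.5%. The median GC content was 50.4% for the 96 genes and 50.1% for the protein-coding genes. Short genes also had lower slopes: rho with the length of the gene was 0.51 over the 96 genes, whose median is 7.59 kb, and 0.29 over the protein-coding genes, whose median is 22.8 kb. Below 5 kb, 20 of 30 genes of the set were called lower, beside 57.8% of protein-coding genes at 10 CPM or more (30.6% at any level). From 5 to 10 kb it was 18 of 32 beside 47.8%, and from 10 to 20 kb 5 of 17 beside 40.3%. From 20 to 50 kb it was 4 of 12 beside 29.15%, and at 50 kb or more 1 of 5 beside 19.0%.

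Libraries differed in how their counts went with GC content. The rank correlation between the deviation of a gene from its mean and its GC content ran from -0.71 in replicate 3 of the C libraries labelled 5-Htt+/+ to 0.71 in replicate 3 of the C libraries labelled 5-Htt+/-, and went with the mt share at r = -0.76 and rho = -0.76 (n = 48). These are the libraries of highest and lowest mt share. The mitochondrially encoded mRNAs have a GC content of 31.9% to 41.1%. A correction for GC content was therefore fitted to each library on protein-coding genes outside the set, after the data had been seen. It was applied to the genes, while the mt share in the fit was left uncorrected. With the correction, 39 of the 96 genes were called, 36 lower and 3 higher, and the median slope was -0.31, against 0.02 over the 17716 genes. Of those, 12.1% were called and 6.78% were called lower. They were of any level, so that these shares are not matched to the level of the set. By complex, 21 of 37 subunits of complex I, 2 of 4 of complex II, 3 of 9 of complex III, 5 of 11 of complex IV and 4 of 15 of complex V were lower. The corrected slopes still went with the length of the gene, with rho = 0.36 over the 96 genes and 0.11 over the 17716 genes. The median slope of the 13 mitochondrially encoded mRNAs themselves went from 1.30 to 0.04 with the correction. Their corrected slopes ran from -0.50 to 0.65, with 1 called higher and 0 lower. The fitted curve was held constant below 37.4% GC, so that the correction of mRNAs below that content lies outside the fitted range.

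Individual genes shifted by different amounts under the GC correction. Uqcrq went from -1.21 to -1.13 ± 0.17 and Ndufb8 from -1.08 to -1.27 ± 0.16, while Ndufb10 went to -0.71 ± 0.12, Ndufs7 to -0.74 ± 0.12, Cox6a1 to -0.61 ± 0.11 and Atp5d to -0.71 ± 0.16, all of them still called. Cox7c, whose mRNA has 38.4% GC, went from -0.15 ± 0.14 to -1.30 ± 0.27 (adjusted p = 5.70e-04), Ndufa4 to -0.54 ± 0.14 and Ndufb2 to -0.53 ± 0.11, and these were called only after the correction. Atp5a1 (-0.19 ± 0.08), Sdhb (-0.08 ± 0.09), Uqcrc1 (-0.12 ± 0.11) and Atp5o (0.02 ± 0.06) were no longer called. Ndufaf4 remained higher at 0.31 ± 0.10 (adjusted p = 0.0321), with Ndufaf5 (0.26 ± 0.09) and the complex I subunit Ndufv3 (0.33 ± 0.11), which had been at -0.17 without it. The other 4 genes that were higher before turned to negative slopes that were not called, Ndufv2 to -0.40 ± 0.15, Uqcrb to -0.22 ± 0.19, Atp5s to -0.09 ± 0.13 and Sdhaf3 to -0.23 ± 0.14. Ndufs4 and Sdhaf2 also turned, to -0.40 ± 0.11 and -0.47 ± 0.11, and were called lower, while Atp5g2 (0.20 ± 0.10) and Atp5j (0.17 ± 0.10) turned the other way and were not called. The correlation of the subunit score with the mt share was -0.52 (rho = -0.37) with the correction. When replicates 1 and 3 of the C libraries labelled 5-Htt+/- were also left out, 24 genes of the set were called, all lower. Over all genes, 1769 of 17692 were then called in either direction. The median slope of the set was -0.17.

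**Figure D5:**
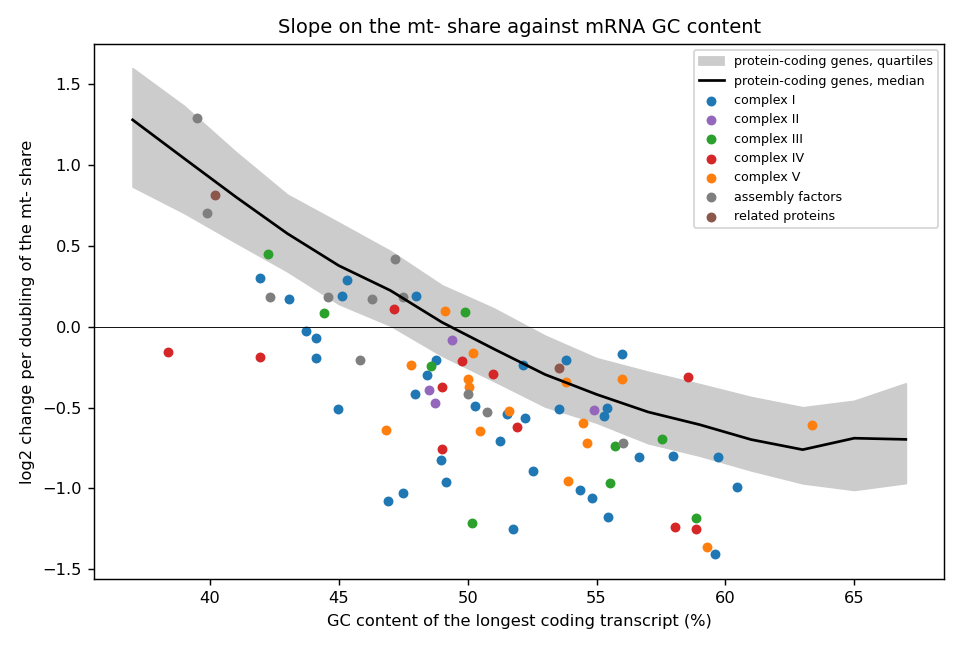
Slope of nuclear genes on the mt share against the GC content of the longest coding transcript in percent, coloured by complex, over the median and quartiles of all protein-coding genes. The median of the protein-coding genes is above 0 below 45% GC and below 0 above 50%, and, with the paralogues left out, most nuclear subunits lie under the median of genes of like GC content.

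Other lists moved with the mt share as well. The lists were chosen with earlier results of these data known, and are described by counts without a test of the list. All 13 mitochondrially encoded mRNAs were higher at a larger mt share, which they make up. Of 16 glycolytic genes 15 were lower and none higher (7 lower with the GC correction), among them Pfkl (-1.24 ± 0.13) and Pkm (-0.97 ± 0.14). Of 108 cytosolic ribosomal protein genes 64 were lower and 4 higher (40 lower and 1 higher of 98 with the GC correction). Of 77 mitochondrial ribosomal protein genes 30 were lower and 10 higher (15 and 3), and of 17 genes of the tricarboxylic acid cycle 9 were lower and 2 higher (6 and 0). Of 23 regulators of mitochondrial biogenesis 11 were higher and 3 lower (4 and 0), with Tfam, the packaging factor of mitochondrial DNA, higher (0.55 ± 0.08) and Polrmt, the mitochondrial RNA polymerase, lower (-0.92 ± 0.12). Of 35 further assembly factors outside the name rule 10 were lower and 5 higher (7 and 2), with the smallest p for Cox14 (-1.01 ± 0.16).

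Markers of other cell types and regions were checked beside the mt share. All 10 choroid plexus markers had a positive slope and none was called, with a correlation of r = 0.15 between the score of the list and the mt share, and 54 of the 96 nuclear genes were called with the choroid plexus score as a term. The summed level of these markers was 35.2 to 752 CPM in C, 32.0 to 954 in SA and 29.0 to 852 in SU libraries labelled 5-Htt+/+, and 32.7 to 685 CPM in C, 35.3 to 734 in SA and 31.3 to 936 in SU libraries labelled 5-Htt+/-. Microglia markers had r = -0.40 and rho = -0.45, with 3 of 6 lower and 1 higher at a larger mt share, and summed levels of 231 to 274 CPM in C, 236 to 255 in SA and 232 to 265 in SU libraries labelled 5-Htt+/-, and of 230 to 275, 240 to 274 and 248.5 to 257 CPM in C, SA and SU libraries labelled 5-Htt+/+. Astrocyte markers had r = -0.30, with 4 of 7 lower and 1 higher, and oligodendrocyte markers -0.19, with 3 of 8 lower and 1 higher. The value was 0.11 for thalamus markers, -0.08 for neuronal, 0.05 for hippocampus and -0.02 for endothelial markers, each with as many called higher as lower (2 each way of the 6 neuronal markers, 1 each way in the other lists). With the GC correction 1 microglia marker was lower and no other marker of the 8 lists was called. No marker of any list was at 0 in a library. The part of these cell types in the slopes was not tested. The hippocampus markers Prox1, Zbtb20, Neurod6, Wfs1, Dsp and Spink8 summed to 535 to 811 CPM. The mt share also went with the first principal component of log2 CPM, which took 7.63% of the variance (r = 0.75, rho = 0.73). The component was computed over all genes tested, genes of the set and mt- genes among them. With this component as a term, 13 genes of the set were called, 8 lower and 5 higher, beside 2219 of all 31208 genes. The median slope of the set was -0.04.

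Many promoters of the set share short sequence motifs, which were searched because the nuclear respiratory factors and their partners are known to act on these genes. A window of 250 bases before to 50 bases after the annotated start was found in RefSeq (GRCm38.p6) for 80 of the 97 genes, 3 of them under another symbol. Letters were matched on both strands, with N for any base. The motif GCGCANGCG of the nuclear respiratory factor NRF1 was present for 24 of the 80 genes (30.0%), beside 9.63% of the 17492 protein-coding genes with a window. The core CCGGAAG bound by ETS factors, which include NRF2, was present for 20 genes (25.0%, beside 12.9%), AANATGGCG of YY1 for 12 (15%, beside 3.64%) and TCAAGGTCA of the oestrogen-related receptors for 2 (2.50%, beside 0.377%). At least 1 of the 4 was present for 46 of the 80 genes (57.5%, beside 23.0%), and a match says only that the letters are there. The 250 bases before the start are shown for Cox6a1 and Ndufa8, which hold NRF1 letters and had slopes of -1.25 and -1.01, and for Ndufaf4, which holds them too and had a slope of 1.30. The 3 were picked after their values were seen. They are written 5′ to 3′ along the strand of the gene, with motif letters in capitals, and lie at chr5:115348959-115349208 (minus strand), chr2:36049339-36049588 (minus strand) and chr4:24897833-24898082 (plus strand).
Cox6a1: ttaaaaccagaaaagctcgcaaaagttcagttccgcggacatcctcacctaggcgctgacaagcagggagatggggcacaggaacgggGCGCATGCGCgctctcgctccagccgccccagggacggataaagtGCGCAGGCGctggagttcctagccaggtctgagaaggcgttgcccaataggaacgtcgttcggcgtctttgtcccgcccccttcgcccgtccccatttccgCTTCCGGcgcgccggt
Ndufa8: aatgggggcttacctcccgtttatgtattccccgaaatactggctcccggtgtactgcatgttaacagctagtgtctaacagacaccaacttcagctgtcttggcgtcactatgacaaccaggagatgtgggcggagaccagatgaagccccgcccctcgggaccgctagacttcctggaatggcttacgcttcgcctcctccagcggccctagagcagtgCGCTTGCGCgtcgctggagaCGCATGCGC
Ndufaf4: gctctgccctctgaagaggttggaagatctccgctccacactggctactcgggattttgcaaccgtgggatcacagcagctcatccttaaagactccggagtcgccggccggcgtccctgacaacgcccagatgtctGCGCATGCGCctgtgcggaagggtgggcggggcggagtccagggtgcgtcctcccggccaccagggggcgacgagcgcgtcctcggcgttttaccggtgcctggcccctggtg
In Cox6a1 the NRF1 letters lie 162 to 153 bases before the start, where matches on the opposite strands overlap, and again 117 to 109 bases before it, and ETS letters lie 16 to 10 bases before it. In Ndufa8 the matches lie 29 to 21 and 9 to 1 bases, and in Ndufaf4 113 to 104 bases before the start. Of the 23 tested genes with NRF1 letters in the window nearest to the counted gene, 16 were lower and 3 higher at a larger mt share (median slope -0.57), and of the 57 without them 24 were lower and 2 higher (median -0.31). For the ETS letters the counts were 8 lower and 1 higher of 19 with them (median -0.31) and 32 lower and 4 higher of 61 without them (median -0.41). These counts are a description, and the difference between genes with and without the letters was not tested.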

How the data were processed

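The values analysed are counts, which the authors deposited as whole numbers of reads for every gene without normalisation or filter, from single-end sequencing of 48 hippocampal libraries. STAR appears both in the paper, with Salmon and tximport, and in the processing notes of the submitters, with HTSeq, DESeq2 and the build GRCm38.p5. No source used here gives, for these counts, the versions of these tools, whether strand was used, or how reads with several places were treated, and rows of overlapping genes can share reads. Gene positions are those of the table (GRCm38), and 70 of the 97 genes had the same position in the annotation from which exon lengths and the GC content of the longest coding transcript were taken.

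Each library was placed in its group by its labels, and no value column was left unmapped (0). The analysis used edgeR 4.0.16 in R 4.3.3. A gene was tested if 3 or more libraries held 5 or more of its reads, and libraries were scaled by the upper quartile. A mean per group was fitted by quasi-likelihood over all 48 libraries, and 9 contrasts were tested with the Benjamini-Hochberg adjustment over all genes. The slope on the mt share used the centred log2 percentage of reads at mt- genes as a further term. A score averages log2 CPM, computed with 2 as prior count, over the genes of a list. The mt share was compared by exact permutation tests over 6 pairs. The GC correction was an offset for each library fitted over 40 classes of GC content on 13380 genes outside the set with a mean log2 CPM of at least 1. The quasi-likelihood fit was tried on simulated counts with the same dispersion for every gene. This covered SU against C libraries labelled 5-Htt+/- and the slope with and without the GC correction. The other contrasts and the alternative fits were not simulated. The depth of 16488405 to 38213754 counts per library leaves the 8 genes below 1 CPM with a median of at most 20.5 reads.

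The genes, lists and tests were chosen with earlier results of these data known. Genes named with values were, by rule, the 10 called genes of smallest p in each test, the gene of smallest p per complex and test, a fixed list of genes with known roles, the 3 highest and lowest in level, and the 3 most and least variable. Other genes were named after their values were seen. The result of 1 gene of the set is not reported here, and its point is left out of the plots of slopes. Alternatives were other scalings, filters, the likelihood ratio test, the earlier quasi-likelihood form, DESeq2 1.42.0, further terms, and libraries left out.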

Additional observations from a re-analysis of the deposited data

Results flagged for a closer look

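For 19 measures within the 6 groups, 114 groups of values were examined. Of these, 6 (5.26%) held 1 library far from the others by Dixon's ratio, and chance flags about 1 group in 20. The measures that are single genes were those of smallest p in the slope on the mt share. All flags but that of the complex II score fell on these genes. They were chosen on values of the same libraries, so that the flags are not an independent screen. In replicate 3 of the C libraries labelled 5-Htt+/-, the library of lowest mt share, Ndufb10 was at 82.4 CPM against 38.9 to 54.4 CPM in the other 6 libraries of the group, and Uqcrq was at 52.2 CPM against 24.5 to 32.6 CPM. In replicate 4 of the SU libraries labelled 5-Htt+/+, Atp5d was at 81.5 CPM against 50.1 to 62.8 CPM and Uqcrq at 33.5 CPM against 26.4 to 29.7 CPM. In replicate 6 of the same group Uqcr11 was at 29.6 CPM against 21.8 to 24.7 CPM. The complex II score of replicate 7 of the C libraries labelled 5-Htt+/+ was 6.59 against 6.30 to 6.42 in the others.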

How the results depend on the processing

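In all 9 comparisons between groups, 0 genes of the set were called under each alternative run and with each library left out. Of 331 values under alternatives other than leaving out 1 library, 323 were not moved by more than their criterion (0.0855 log2 for medians, 1.5 times for counts), and of 1056 values with 1 library left out 1046 were not moved. These tallies do not show that the medians are stable. The criterion is larger than the median of the set in each comparison, so that a change of sign could pass, and many counts stayed at 0. Under these alternatives the median ran from -0.033 to 0.059 in SU against C libraries labelled 5-Htt+/-. In C libraries labelled 5-Htt+/- against C labelled 5-Htt+/+ it ran from -0.028 to 0.053. The median log2 fold change of the set in SA against C libraries labelled 5-Htt+/- moved from -0.057 to 0.052 without the 6 libraries at the low end of the first principal component and to 0.040 with the GC correction and without replicates 1 and 3 of the C libraries, both chosen after seeing the data. Its cause was not tested. The slope on the mt share gave 13 called genes (2219 of 31208 over all genes) and a median of -0.043 with the first principal component as a term. The median was -0.266 without the 6 libraries and -0.306 with the GC correction. With the GC correction and without replicates 1 and 3, 24 genes of the set were called (1769 of 17692 over all genes). Their median in the set was then -0.171. The other alternatives gave 39 to 63 called genes. The difference in mt share ranged, with each library left out, from -0.0642 to 0.149 points (SA against C) and -0.0188 to 0.195 (SU against C) in libraries labelled 5-Htt+/+, from -0.117 to 0.0116 for SA against SU in them, and, labelled 5-Htt+/-, from 0.254 to 0.607 for SA against C, from -0.388 to -0.183 for SA against SU, and from 0.527 to 0.880 for SU against C, which passed without replicate 4 of C only.

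Replicate numbers recur in the groups, but samples of the same number did not deviate together: the mean correlation was 0.0044 over 115 pairs, and 5.22% of pairs exceeded 0.1. With a replicate block, 56 genes changed with the mt share (median -0.395) and no other call changed. Genes below 1 CPM have too few reads for differences of the size found in the others. Fitting only the groups compared is the same as the reported fit for the interaction of PS and label, which uses all 6.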
